A study of Mus musculus with 4 samples.

Results

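The 10 genes described here are those of the HIF-1 oxygen-sensing system and its best known hypoxia-response targets, taken by symbol from the MC38 expression table, where all 10 of them were found among 26322 genes. They are Hif1a, the prolyl hydroxylase genes Egln1 and Egln3, and the targets Vegfa, Adm, Ndrg1, Ankrd37, Bnip3, Car9 and Ero1l. MC38 is a mouse colon carcinoma line. WT cells were electroporated with Cas9 and a non-targeting guide RNA, and CbfbKO cells with Cas9 and a guide against Cbfb, the gene of the partner subunit of the RUNX transcription factors. Cells were taken at least 1 week later, and 2 libraries of each group were sequenced from the 3 samples collected, the remaining RNA being of poor quality. The edited cells were used without a stated cloning step, both groups received Cas9, and the oxygen level of the cultures is not given in the sources used here. Nothing in the labels says that the 2 libraries of a group came from separate cultures, so p-values measure the spread between these libraries, which may be technical.

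In cells with enough oxygen, the EGLN enzymes (also called PHD enzymes) hydroxylate prolines of HIF-1α, which is then bound by the VHL ubiquitin ligase and degraded. When oxygen is low, HIF-1α escapes this, pairs with ARNT and switches on genes of glycolysis, blood vessel growth, mitophagy and pH control, among them Egln3 and Egln1 themselves. HIF-1α is controlled mostly as a protein, so that Hif1a mRNA is not a measure of HIF activity.

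The question asked of these genes was whether their mRNA differed between CbfbKO and WT cells. Only Egln3 passed the test. It was 2.74-fold higher in CbfbKO cells, whereas its relative Egln1 stayed at the same level, with a fold of 1.00. Hif1a and Bnip3 lay slightly higher and Vegfa and Ndrg1 slightly lower in both CbfbKO libraries, without passing. Ero1l and Ankrd37 overlapped between the groups, Car9 was at the limit of detection and Adm had no reads.

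The DNA in front of the members whose libraries did not overlap between groups is shown first, because the HIF complex binds a short core sequence, the hypoxia response element. The 250 bases before the RefSeq start of each gene (GRCm38.p6) were searched on both strands for ACGTG and GCGTG, and matches are in capitals, overlapping ones being run together. No entry matched for Ndrg1. The windows are chr12:54203875-54204124 on the minus strand for Egln3, chr12:73907617-73907866 on the plus strand for Hif1a, chr7:138909507-138909756 on the minus strand for Bnip3 and chr17:46032378-46032627 on the minus strand for Vegfa, and each is printed 5′ to 3′ towards its gene. The Hif1a window lies inside the longer GENCODE gene model of Hif1a.
Egln3: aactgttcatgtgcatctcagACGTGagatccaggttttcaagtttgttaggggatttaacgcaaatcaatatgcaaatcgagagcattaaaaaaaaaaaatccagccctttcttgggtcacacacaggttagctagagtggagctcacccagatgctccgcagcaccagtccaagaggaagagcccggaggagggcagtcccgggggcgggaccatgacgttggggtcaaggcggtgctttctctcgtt
Hif1a: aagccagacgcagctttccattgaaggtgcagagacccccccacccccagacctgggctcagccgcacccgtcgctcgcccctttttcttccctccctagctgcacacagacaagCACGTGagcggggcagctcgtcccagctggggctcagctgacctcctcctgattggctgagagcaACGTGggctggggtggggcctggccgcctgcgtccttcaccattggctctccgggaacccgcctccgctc
Bnip3: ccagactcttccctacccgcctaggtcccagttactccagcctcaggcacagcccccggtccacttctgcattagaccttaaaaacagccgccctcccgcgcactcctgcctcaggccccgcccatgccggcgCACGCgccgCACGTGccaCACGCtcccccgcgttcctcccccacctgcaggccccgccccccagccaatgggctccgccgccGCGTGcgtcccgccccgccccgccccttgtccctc
Vegfa: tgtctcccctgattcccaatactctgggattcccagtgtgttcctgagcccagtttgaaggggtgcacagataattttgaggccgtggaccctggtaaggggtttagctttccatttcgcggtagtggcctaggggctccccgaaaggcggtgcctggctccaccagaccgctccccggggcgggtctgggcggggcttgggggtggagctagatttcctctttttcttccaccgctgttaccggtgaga

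Egln3 held 1 match, an ACGTG that began 229 bases before the start. Hif1a held 3, of which 2 overlap as a palindrome 135 bases before the start. Bnip3 held 5 and Vegfa held 0 in this window, which says only that these letters are not there. Of the 9 members with a promoter entry, 8 held a match, against 38.6% of 27025 mouse promoters of the same length, and 7 held ACGTG, against 16.5%. The share of G and C bases in the members' windows ran from 50.8% (Egln3) to 86.0% (Egln1). The promoters compared were not matched for it, though both core sequences contain CG. Genes of this group are known for such elements, so the count describes the list and not the response to the Cbfb guide. TGTGGT, a sequence that RUNX proteins bind, was searched on both strands after the values had been seen. It was found in 0 of the 9, against 14.2% of all promoters. Other forms of the RUNX sequence were not searched, and 9 promoters are few beside that share. The 0 therefore does not show that RUNX sites are absent.

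The libraries held between 3189035 and 3907936 reads counted on genes, and 1 read was worth between 0.256 and 0.314 CPM, the reads of a gene scaled to a fixed library total. Values are log2 CPM as deposited, in which genes without reads share a floor of -0.79. Because 3′ libraries sample transcript ends, a longer transcript does not give more reads, and levels of different genes are compared here in CPM without a length correction. Differences were tested with limma on the 12207 genes that reached a log2 CPM of 0 in 2 or more libraries. Tests were two-sided, and p-values were adjusted over all these genes (Benjamini-Hochberg, threshold 0.05). For one gene alone, the smallest p that an exact permutation of these 4 libraries can give is 0.333, so that significance rests on the spread that limma shares across genes. Cbfb reads, 295 and 285 in WT and 125 and 125 in CbfbKO libraries, were lower in both CbfbKO libraries, but 3′ reads do not cover the edit itself. Of 8 epithelial and colon markers, Krt18, Vil1 and Lgals4 were at 0 and none had more than 4 reads in a library. The labelled colorectal origin is thus not visible in these markers. Of 4 mesenchymal markers, Vim had 6737 to 8669 reads and Cdh2 84 to 119, whereas Col1a1 had only 8 to 13 and Pdgfrb 4 to 16. The 12 leukocyte, endothelial and erythroid markers had at most 1 read per library.

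**Figure D1:**
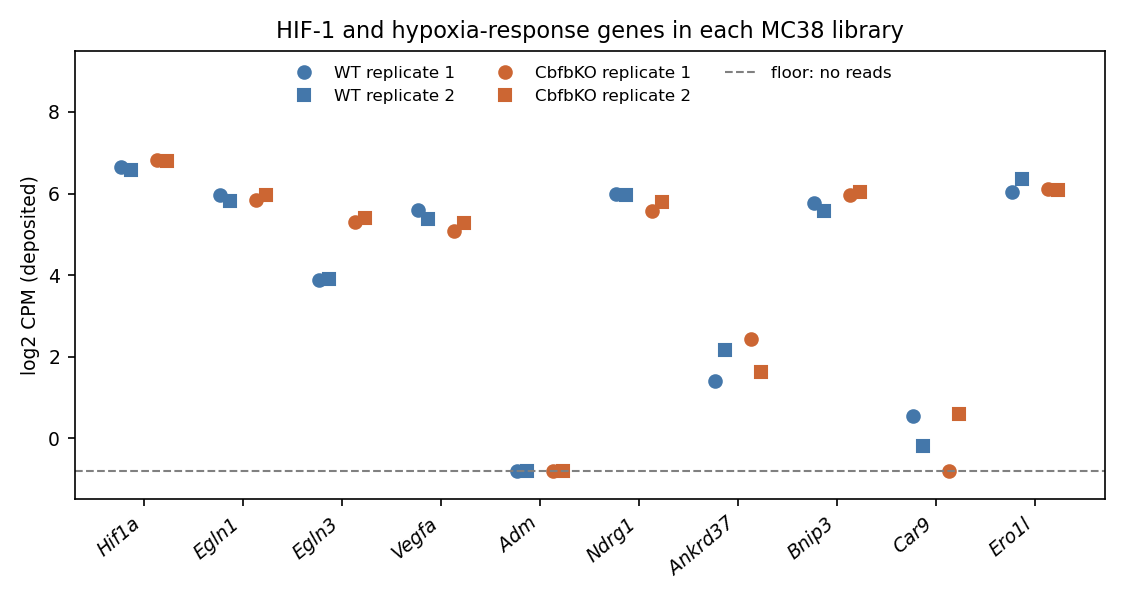
Deposited log2 CPM (vertical axis) of the 10 genes in each of the 4 libraries; blue points are WT, orange points CbfbKO, circles replicate 1, squares replicate 2, and the dashed line is the value of a gene without reads. The CbfbKO points of Egln3 (5.29 and 5.40) lie far above its WT points (3.88 and 3.90), and Adm lies on the floor in every library.

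Egln3 lies on chromosome 12 (54178981 to 54203860, minus strand, GRCm38) and encodes PHD3, the HIF prolyl hydroxylase whose own gene is most readily induced by hypoxia. Its libraries held 48 and 48 reads in WT and 151 and 133 in CbfbKO cells, or 14.1 and 14.4 CPM against 38.6 and 41.7. Both CbfbKO libraries were thus well above both WT libraries, with little spread inside either group. The mean was 3.89 ± 0.018 log2 CPM (SD, n = 2) in WT and 5.35 ± 0.077 (SD, n = 2) in CbfbKO. The log2 difference was 1.46 with a standard error of 0.17 (adjusted p = 4.05e-06 from limma), with a 95% interval of the fold from 2.15 to 3.50. It ranked 37 by p-value among the 12207 genes. In a bulk library, more transcripts in every cell and a larger share of cells that express the gene cannot be told apart. The call was lost without CbfbKO replicate 1 or 2 (adjusted p = 0.326 and 0.396 from limma), fits in which no gene passed (1104 and 1169 at an unadjusted p under 0.05). Egln3 stood at 1.51 and 1.40 on the log2 scale in these fits. The values were the same with the 52 genes that had no residual spread taken out, a step added after seeing the data. The spread in these fits comes from the WT libraries alone, and the lone CbfbKO library is assumed to vary like them. Over 9520 genes with 10 or more reads in every library, the CbfbKO libraries differed more from each other than the WT libraries did. Chi-square per degree of freedom against counting noise was 2.15 in CbfbKO and 1.58 in WT.

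Egln1, on chromosome 8 (124908587 to 124949324, minus strand), encodes PHD2, the main oxygen sensor that keeps HIF-1α low in normal oxygen. It had 210 and 187 reads in WT and 221 and 196 in CbfbKO libraries, or 61.8 and 56.1 CPM against 56.6 and 61.5. The libraries of the groups were interleaved. The fold was 1.00, with a 95% interval from 0.849 to 1.18, which leaves no room for a change of the size seen in Egln3. Egln2, the third enzyme of the family (PHD1), had 182 and 170 reads in WT and 222 and 173 in CbfbKO cells, and its log2 difference was 0.09 (adjusted p = 0.806 from limma). Egln3 therefore made up a larger part of the family's mRNA in CbfbKO cells. Its share of the reads of Egln1, Egln2 and Egln3 was 10.9% (95% exact binomial interval 8.15 to 14.2) and 11.9% (8.87 to 15.4) in the WT libraries. In the CbfbKO libraries it was 25.4% (22.0 to 29.1) and 26.5% (22.7 to 30.6). These intervals cover counting error only, and those of WT and CbfbKO do not overlap.

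**Figure D2:**
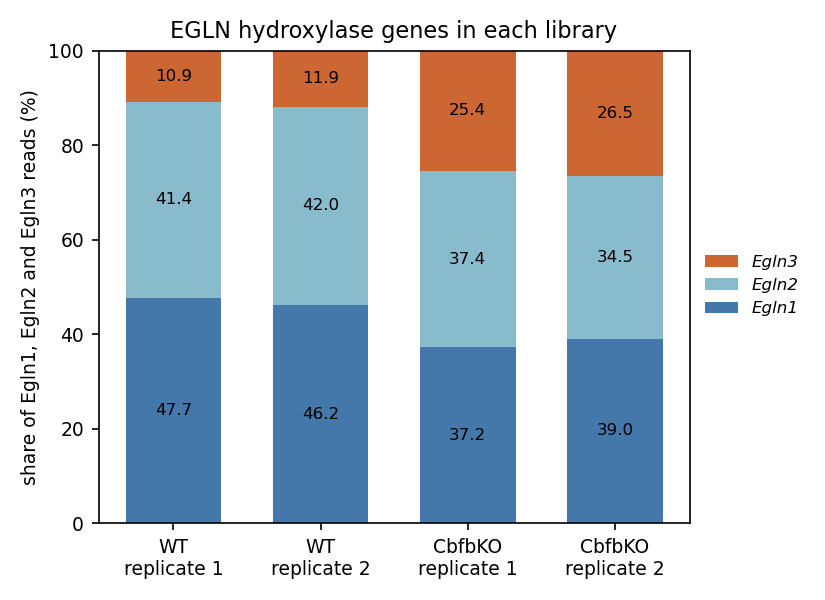
Share (vertical axis, %) of the reads of Egln1, Egln2 and Egln3 that each gene took in the 4 libraries, with the percentage written in each bar. The Egln3 part is 10.9% and 11.9% in the WT libraries and 25.4% and 26.5% in the CbfbKO libraries.

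Hif1a, on chromosome 12 (73901375 to 73947530, plus strand), encodes the oxygen-regulated subunit of HIF-1. It was the most highly expressed member in both groups, with 338 and 314 reads in WT and 442 and 355 in CbfbKO libraries. These were 99.5 and 94.2 CPM against 113.1 and 111.3, so that both CbfbKO libraries lay above both WT libraries. The log2 difference was 0.21 (standard error 0.090, unadjusted p = 0.0279, adjusted p = 0.255 from limma), and the 95% interval of the fold went from 1.02 to 1.32. It did not pass the threshold.

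Among the targets, Bnip3 encodes a mitochondrial outer membrane protein of mitophagy and lies on chromosome 7 (138890836 to 138909519, minus strand). It had 183 and 158 reads in WT and 240 and 207 in CbfbKO libraries, or 53.9 and 47.4 CPM against 61.4 and 64.9. The groups did not overlap, with CbfbKO above, and the log2 difference was 0.32 (standard error 0.12, adjusted p = 0.169 from limma). The fold was 1.25, with a 95% interval from 1.05 to 1.48.

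Vegfa and Ndrg1 were placed the other way. Vegfa, the main growth factor of blood vessels, lies on chromosome 17 (46016993 to 46032369, minus strand). It had 163 and 136 reads in WT and 131 and 122 in CbfbKO libraries, or 48.0 and 40.8 CPM against 33.5 and 38.3. Both CbfbKO libraries lay below both WT libraries. The log2 difference was -0.30, with a standard error of 0.14 (adjusted p = 0.308 from limma). Ndrg1, a stress-induced gene used as a marker of hypoxia, lies on chromosome 15 (66929318 to 66969640, minus strand). Its levels were 63.3 and 61.8 CPM in WT and 47.3 and 54.6 in CbfbKO cells, again without overlap, and its log2 difference was -0.30 (standard error 0.12, adjusted p = 0.210 from limma). The 95% intervals of the fold, 0.665 to 0.992 for Vegfa and 0.688 to 0.964 for Ndrg1, lay on the opposite side of 1 from that of Bnip3. These intervals are not adjusted for the number of genes tested, and none of these genes passed the threshold.

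Ero1l, which encodes the oxidase that drives disulphide formation in the endoplasmic reticulum, lies on chromosome 14 (45283087 to 45318771, minus strand). It had 65.7 and 81.9 CPM in WT and 69.1 and 67.7 in CbfbKO libraries. The CbfbKO values lay between those of WT, and the fold was 0.934 (95% interval 0.794 to 1.10, adjusted p = 0.760 from limma). Ankrd37, a small ankyrin-repeat gene induced by HIF-1, lies on chromosome 8 (45996902 to 46005707, minus strand), where it overlaps Ufsp2 on the opposite strand. Its reads were 7 and 13 in WT and 19 and 8 in CbfbKO libraries, and the groups overlapped. At this depth its fold of 1.19 had a 95% interval from 0.659 to 2.16, so that neither a rise nor a fall of moderate size was detectable. Ufsp2 had 254 to 363 reads per library, and since the use of strand in the counting is not given in the sources used here, reads of the pair could have been exchanged. Hif1a, Bnip3, Ndrg1, Adm and Car9 also overlap predicted or non-coding genes, whereas Egln1, Egln3, Vegfa and Ero1l overlap no other annotated gene.

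Car9, the membrane carbonic anhydrase of hypoxic tumours on chromosome 4 (43506966 to 43513729, plus strand), had 3 and 1 reads in WT and 0 and 3 in CbfbKO libraries. That is at or below the floor of 3 reads in every library, and no fold is given. Adm, the gene of the vasodilator peptide adrenomedullin on chromosome 7 (110627661 to 110629820, plus strand), had 0 reads in all 4 libraries. A count of 0 allows up to 3 reads, or between 0.768 and 0.941 CPM depending on the library.

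In WT cells the order of levels in log2 CPM ran from Hif1a (6.61) through Ero1l (6.21), Ndrg1 (5.98), Egln1 (5.89), Bnip3 (5.68) and Vegfa (5.49) to Egln3 (3.89) and Ankrd37 (1.78). The neighbours Ndrg1 and Egln1 overlapped between libraries, as did Bnip3 and Vegfa. In CbfbKO cells Hif1a (6.82) and Ero1l (6.11) were followed by Bnip3 (5.99), Egln1 (5.90), Ndrg1 (5.68), Egln3 (5.35), Vegfa (5.19) and Ankrd37 (2.04), and Bnip3 and Egln1 overlapped. Among these 8 genes, 2 pairs changed places without overlap between libraries. Egln3 lay below Vegfa in both WT libraries and above it in both CbfbKO libraries, and Bnip3 did the same relative to Ndrg1. Neither Bnip3 nor Ndrg1 passed the threshold, and how often other pairs of genes change places in this way was not computed.

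**Figure D3:**
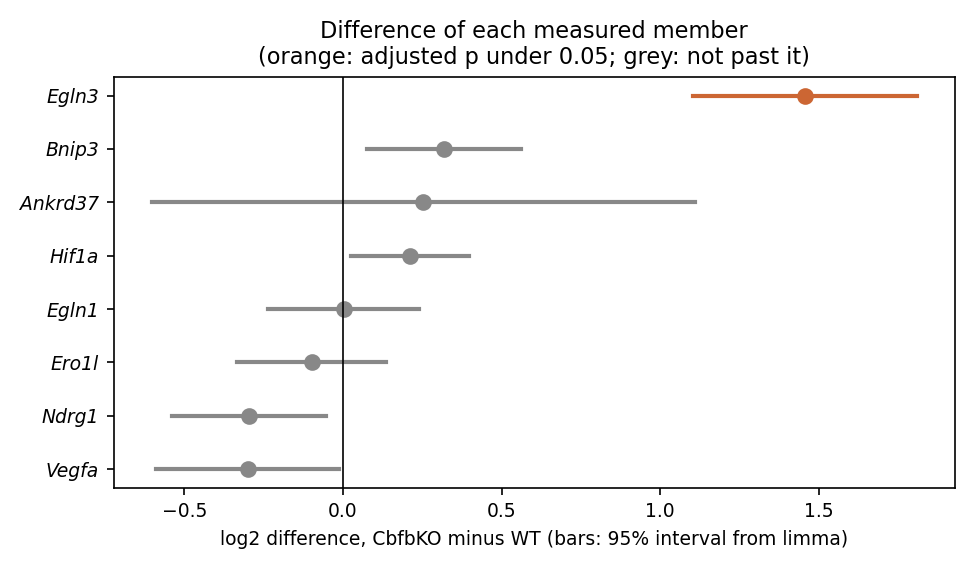
Log2 difference (horizontal axis, CbfbKO minus WT) of the 8 members with more than 3 reads in at least 1 library, with 95% intervals from limma as bars; orange marks an adjusted p under 0.05 and grey the others. The point of Egln3 is at 1.46 and the other 7 lie between -0.30 and 0.32.

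Of the 10 members, 9 passed the filter on low values, Car9 only by the prior count in the deposited values, and 1 of the 9 was called higher and 0 lower. Over all genes tested, 2.83% were called, 1.57% higher and 1.25% lower, so that 1 call among 9 genes is a statement about Egln3 and not about the group. The members' median log2 difference was 0.0018, beside 0.039 for all genes tested. An unadjusted p under 0.05 was found for 5 of the 9 members, 3 of them higher and 2 lower, against 14.9% of all genes. The same 5 were those whose groups did not overlap, which held for 44.1% of all genes tested.

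The wider HIF pathway was followed in a list of 77 genes that holds the members. Of its 64 genes tested, 2 were higher (Egln3 and Ddit4) and 1 was lower (Cited2) in CbfbKO cells, which is 4.69% beside the 2.83% of all genes. Its median log2 difference was 0.058. Of the 64 differences, 38 were positive and 26 negative, beside 6958 and 5249 over all genes tested.

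In the oxygen-sensing machinery, 14 of 17 genes were tested, 1 was higher (Egln3), 1 was lower (Cited2) and 12 did not pass. Cited2 encodes a protein that competes with HIF-1α for the coactivators p300 and CBP, and its gene is itself induced by HIF. It lies on chromosome 10 (17723218 to 17725674, plus strand). It had 883 and 890 reads in WT and 627 and 607 in CbfbKO libraries, or 260.0 and 266.9 CPM against 160.4 and 190.3. Both CbfbKO libraries were lower, with a log2 difference of -0.59 and a standard error of 0.080 (adjusted p = 3.51e-05 from limma), and the fold was 0.664. Without CbfbKO replicate 1 or 2 the call was lost (log2 differences -0.47 and -0.71, adjusted p = 0.401 and 0.263 from limma, or 0.0259 and 0.00232 with the genes without residual spread taken out). It was also lost with quantile normalization, at a log2 difference of -0.62 (adjusted p = 0.0646).

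Hif1an, which encodes the asparagine hydroxylase FIH that blocks coactivator binding by HIF-1α, had 92 and 100 reads in WT and 154 and 112 in CbfbKO libraries. Its log2 difference was 0.38 (standard error 0.15, adjusted p = 0.208 from limma), without overlap but not past the threshold. The partner Arnt had 62 and 89 reads in WT and 78 and 61 in CbfbKO cells, and Vhl had 41 and 42 against 57 and 51. The other HIF α genes were hardly present, with 0 to 4 reads of Epas1 per library and 0 of Hif3a. HIF-1 was therefore the form whose mRNA was measurable in these cells.

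Of 39 hypoxia targets outside glycolysis, 31 were tested, 1 was higher (Ddit4), 0 were lower and 30 did not pass. Ddit4 encodes REDD1, an inhibitor of mTORC1 that is induced by hypoxia and by other stresses. It lies on chromosome 10 (59949669 to 59951834, minus strand) and had 256 and 252 reads in WT and 377 and 379 in CbfbKO libraries. The levels were 75.4 and 75.6 CPM in WT and 96.5 and 118.8 in CbfbKO cells, so that both CbfbKO libraries were higher but differed from each other. The log2 difference was 0.50 (standard error 0.10, adjusted p = 0.00536 from limma). This call was the least stable of the 3, being lost under 7 of 16 alternatives, with each of the 4 libraries left out among them (adjusted p = 0.0596 and 0.0635 without WT replicates 1 and 2, 0.386 and 0.511 without CbfbKO replicates 1 and 2, from limma), at log2 differences of 0.35 to 0.65. With the genes without residual spread taken out, the adjusted p from limma was 0.00293 and 0.00269 without WT replicates 1 and 2, 0.0261 without CbfbKO replicate 1 and 0.30 without CbfbKO replicate 2.

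Next by p-value came genes that did not pass in the test over the 12207 genes. Bhlhe41, a transcriptional repressor induced by HIF, had 17 and 17 reads in WT and 6 and 6 in CbfbKO libraries, and its log2 difference was -1.30 with a standard error of 0.39 (adjusted p = 0.0717 from limma, but 0.0452 with a minimum of 5 CPM). It met that minimum only through the WT libraries, where it was high (5.01 and 5.10 CPM, against 1.54 and 1.88 in CbfbKO). The call under that setting is therefore no separate support. Loxl2, a lysyl oxidase of the matrix, differed by -0.26 (adjusted p = 0.181 from limma). Among the 21 glycolytic targets, 19 were tested and 0 passed in that test, 7 of them at an unadjusted p under 0.05, beside 14.9% of all genes tested. Their median log2 difference was 0.069. The glycolytic genes named by p-value were Pkm (-0.17, adjusted p = 0.0726 from limma), Tpi1 (0.19, adjusted p = 0.150) and Gapdh (0.28, adjusted p = 0.182). Pkm, a pyruvate kinase gene, was lower past the threshold in limma's voom fits to the recovered reads (adjusted p = 0.00371 with library totals and 0.0004 with median scaling), with median centring (0.0189) and with a minimum of 5 CPM (0.0364), at log2 differences of -0.19 to -0.17. With a library left out, Gapdh ranged from 0.18 to 0.38. Gapdh has many processed copies in the mouse genome, and its 229 to 351 reads per library may not hold all its reads.

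**Figure D4:**
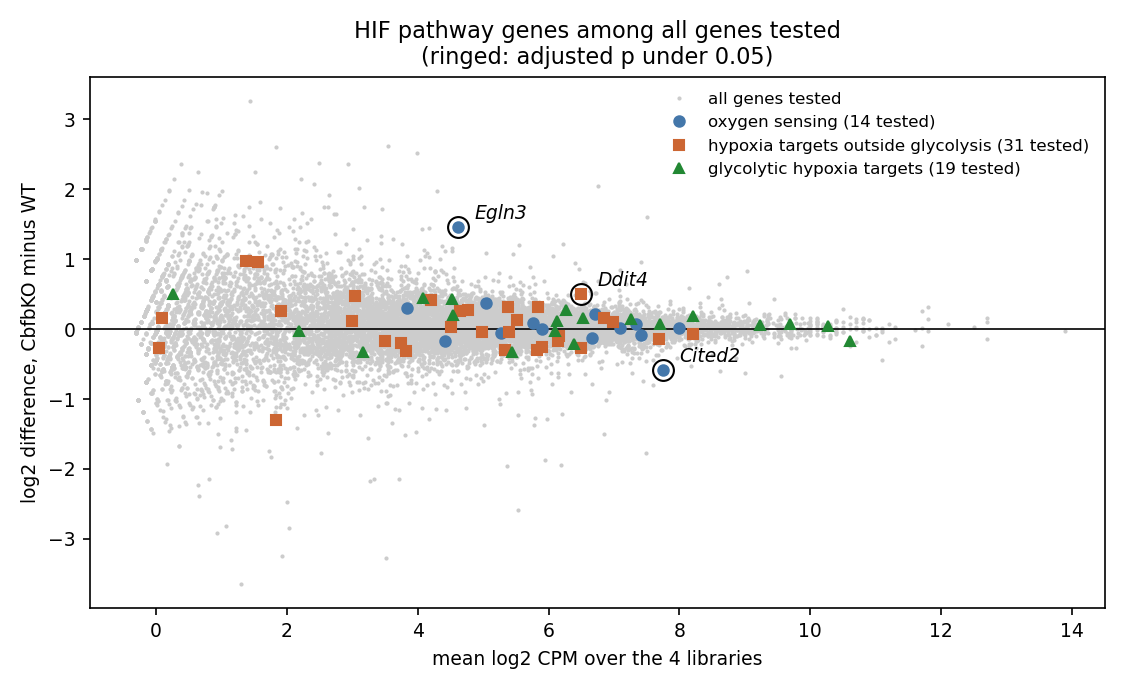
Log2 difference (vertical axis, CbfbKO minus WT) against the mean log2 CPM over the 4 libraries (horizontal axis) for all genes tested (grey) and for the genes of the wider HIF list (blue circles, oxygen sensing; orange squares, targets outside glycolysis; green triangles, glycolytic targets). The ringed genes passed the threshold: Egln3 at 1.46, Ddit4 at 0.50 and Cited2 at -0.59.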

How the data were processed

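3′ mRNA libraries (QuantSeq) of MC38 cells, 2 WT and 2 CbfbKO, were grouped by their labels. According to the methods and the submitters' processing notes, the authors trimmed reads with cutadapt 1.9, aligned them to mm10 with HISAT2 2.1.0, counted them per gene with featureCounts (2.0.1 in the notes, another version in the methods) and ran Voom-LIMMA on the result. The values that the authors deposited are log2 CPM, each library scaled to its own total. The floor implies a prior count of 2. The annotation and the use of strand are not given in the sources used here, which bears on overlapping genes.

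The deposited values move in steps of 1 read, from which read numbers were rebuilt. In every library 100.0% of values came out whole, with a tolerance of 0.1 reads. The deposited log2 values were tested with limma 3.58.1 (lmFit and trended eBayes) in R 4.3.3. Scripts were tested on simulated data. Alternatives were no filter, a minimum of 5 CPM, median centring, quantile normalization, no trend, voom on recovered reads with 2 scalings, the replicate block, each library left out, and an adjusted p under 0.01. After seeing the data, the fits with a library left out were also run without the genes that had no residual spread. The members and lists were chosen with earlier results of these data known. The named genes are the 10 members, Cbfb and the 10 genes of the wider list with the smallest p-values. A gene of the wider list is not reported here, and the list is counted without it. Positions are from GENCODE M21 (GRCm38) and promoters from RefSeq (GRCm38.p6), of which the 5′-most start per gene was used. Figures were drawn with matplotlib 3.10.9 in Python 3.11.15.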

Additional observations from a re-analysis of the deposited data

How the results depend on the processing

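Egln3 was positive under all 16 alternatives, from 1.40 to 1.51 on the log2 scale, and passed in 13 of them. Fits with the genes without residual spread taken out, a step added after seeing the data, are counted among the 16 and among the 13. It did not pass when limma's trend was switched off (adjusted p = 0.113), a setting that called 0 genes (1461 had an unadjusted p under 0.05), or in the planned fits without CbfbKO replicate 1 or 2. Hif1a, Bnip3, Vegfa and Ndrg1 kept their direction and did not pass in any alternative, their lowest adjusted p being 0.208, 0.110, 0.223 and 0.140. With a library left out they ranged from 0.17 to 0.25, 0.23 to 0.41, -0.42 to -0.18 (the smallest size without WT replicate 1) and -0.40 to -0.19 (the smallest size without CbfbKO replicate 1). Egln1 was at -0.021 with median centring, -0.019 with quantile normalization, and -0.0041 and -0.028 in the voom fits to library totals and to medians. With a library left out, Egln1 ranged from -0.068 to 0.072 (-0.068 and -0.058 where its sign turned), Ankrd37 from -0.16 to 0.66 (-0.16 and -0.13) and Ero1l from -0.26 to 0.059.

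Against 192 higher and 153 lower genes in all, there were 300 higher with a minimum of 5 CPM, 39 and 44 with quantile normalization, 0 and 0 without the trend, and 103 and 97 at an adjusted p under 0.01. With a library left out, they ranged from 0 to 115 and from 0 to 86, the 0 being without either CbfbKO library. With the genes without residual spread also taken out, which was chosen after seeing the data, there were 40 and 44 higher and 56 and 62 lower without CbfbKO replicates 1 and 2, and 226 and 217 higher and 158 and 132 lower without WT replicates 1 and 2. Members past the threshold numbered 1, but 0 without the trend, and 0 to 1 with a library left out. The wider list had 3, but 5 with a minimum of 5 CPM (Bhlhe41 and Pkm added), 4 with median centring and in both voom fits (Pkm added), 1 with quantile normalization, 0 without the trend, 0 to 2 with a library left out, and 2 to 3 there with the genes without residual spread also taken out. Cbfb stayed negative, at -1.27 without the trend (adjusted p = 0.115 from limma) and -1.41 to -1.13 with a library left out, where the call was lost without CbfbKO replicate 1 or 2 (adjusted p = 0.267 and 0.193 from limma). The cause of these shifts was not tested, except that leaving out the genes without residual spread brought calls back. With the replicate number as a block 320 genes were higher, and the wider list had 4, Bhlhe41 being added (adjusted p = 0.0422 from limma). Sharing a number did not make libraries deviate alike (correlation across genes -0.0042), and Egln3 passed with and without the block. Depth limits Ankrd37, Car9 and Adm. Bhlhe41 reached 5 CPM only in the WT libraries, so that its addition with a minimum of 5 CPM came through the group where it was high.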

Other observations

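Relatives and partners of the members were listed after the members' values had been seen, and are given as counts and values. Over all genes tested, 14.9% had an unadjusted p under 0.05. Of the VEGF family, 8 of 10 ligand and receptor genes were tested and 0 passed (3 at an unadjusted p under 0.05). Vegfb was its most abundant ligand, with 484 to 619 reads per library and a log2 difference of -0.09 (adjusted p = 0.649 from limma). Vegfc, a growth factor of lymphatic vessels, had 88 and 95 reads in WT and 83 and 71 in CbfbKO libraries (-0.31, adjusted p = 0.408 from limma), and Vegfd had 16 and 10 against 34 and 20 (0.87, adjusted p = 0.202 from limma). The receptors Kdr and Flt4 had 0 reads in every library, whereas the coreceptor Nrp2 had 333 to 403. The receptor Flt1 had 2 and 8 reads in WT and 13 and 9 in CbfbKO libraries (0.97, adjusted p = 0.335 from limma).

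Cited1, a relative of Cited2 that also binds CBP and p300, was placed opposite to it, with 36 and 31 reads in WT and 79 and 44 in CbfbKO libraries (0.72, adjusted p = 0.131 from limma). Cited4 had 0 reads. Bnip3l (NIX), the mitophagy receptor related to Bnip3, overlapped between the groups at 101 and 113 against 120 and 98 reads (-0.05, adjusted p = 0.929 from limma). In a list of prolyl and lysyl hydroxylase genes, which holds P4hb, a subunit that is itself a protein disulphide isomerase, 8 were tested and 0 passed (0 at an unadjusted p under 0.05). Of the 6 genes of Ero1l, Ero1lb and protein disulphide isomerases, P4hb again included, 0 passed (0 at an unadjusted p under 0.05), and their differences lay between -0.099 and 0.10. Among 12 carbonic anhydrase genes, 6 were tested and 0 passed (1 at an unadjusted p under 0.05), and Car13 was the most abundant, with 98 to 109 reads. The adrenomedullin receptor gene Calcrl had 2 to 9 reads per library, Ramp1 and Ramp2 had 0, and Ramp3 had 68 to 77.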
